A study of Mus musculus with 9 samples.

Results

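The nuclear genes for the subunits of oxidative phosphorylation were followed in D2.0R cells, a mouse mammary tumour cell line derived from hyperplastic alveolar nodules, in culture on 2 kinds of matrix. Members were chosen by gene symbol, as the Ndufa, Ndufb, Ndufc, Ndufs, Ndufv and Ndufab1 genes of complex I, Sdha to Sdhd of complex II, the Uqcr genes and Cyc1 of complex III, the Cox4 to Cox8 genes of complex IV, the Atp5 genes of complex V, and Cycs. The rule found 87 genes of the 23309 in the files, of which 36 belong to complex I, 4 to complex II, 9 to complex III, 20 to complex IV and 15 to complex V. Cycs, the mobile carrier cytochrome c, was kept apart. Atp5s and Atp5sl carry the family name but encode no subunit of the isolated enzyme. Ndufa4 and its paralogue Ndufa4l2 were counted with complex IV, where the Ndufa4 protein is now placed, as was Cox7a2l.

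Cells of all groups came from this 1 line, in low glucose medium with 2% serum, with no drug or engineered allele named in the labels. The first group, BME day 1, was grown for 1 day on basement membrane extract (BME), on which the study describes the cells as dormant. The second, BME day 5, stayed on the same matrix for 5 days. The third, BME + COL day 5, was grown for 5 days on BME with type I collagen (COL), the matrix that the study uses to induce proliferation. Each group had 3 libraries, a, b and c, described as biological replicates.

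Oxidative phosphorylation couples electron transfer to ATP synthesis in the inner mitochondrial membrane. Complexes I and II pass electrons from NADH and succinate to ubiquinone, complex III passes them on to cytochrome c, complex IV hands them to oxygen, and complex V uses the proton gradient to make ATP. A small set of subunits carries the flavins, iron-sulfur clusters, haems and catalytic sites, and many accessory subunits surround them. The mitochondrially encoded subunits were not analysed here.

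Values were FPKM (fragments per kilobase of transcript, scaled to the number of mapped fragments) as deposited, summed over the transcripts of a gene. The summed FPKM of a library ran from 287611 to 423289 and was highest in the BME + COL day 5 libraries, so a second scale, TPM (FPKM rescaled so that every library has the same total), was reported beside the first. Going from FPKM to TPM moved the difference of the median member between BME day 5 and BME + COL day 5 up by 0.35 on the log2 scale, while the order of members in a comparison stayed almost the same. Depth, as coverage times length, was 7.21 to 9.37 gigabases per library, and the deposited intervals of the members reached a median of 4.05 to 4.76% of the value to either side. Replicate b of BME day 5 stood apart, with the lowest summed FPKM and a median member level of -0.32 (log2, relative to the mean of all libraries) against -0.09 and -0.04 in replicates a and c. In BME day 5 replicate a, genes shorter than 300 nt held 7.25% of all FPKM, against at most 2.12% in the other libraries. In bulk RNA, fewer cells of a type and less RNA per cell cannot be told apart.

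Promoter sequence was available for 67 of the 79 members that were later tested, from RefSeq tables of GRCm38.p6 that give 250 bases before and 50 after each transcription start. Words bound by regulators of mitochondrial genes were searched on both strands. GCGCANGCG, the core of the NRF1 word, stood in 21 of the 67 members (31.3%), against 7.03% of 27025 genes with a promoter. CCGGAAG, the word of ETS factors such as GABPA, stood in 16 members (23.9%) against 9.93% of genes. AAGATGGCG, bound by YY1, stood in 8 members (11.9%) against 1.64%. TGACGTCA, the cyclic AMP response element (CRE), stood in 5 members, which were Cycs, Ndufa10, Ndufa11, Ndufb2 and Uqcrfs1 (7.46% against 2.03% of genes). TCAAGGTCA, the word of oestrogen-related receptors, stood in Atp5g3 and Sdhd (2.99% against 0.47%), and CACGTG, the E-box, in 7 members (10.4% against 8.09%). These are letter matches and not measured binding. The 27025 genes were not filtered by expression, while the 67 members had reached a mean of 1 FPKM, so the 2 sets are unlike.

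The promoters of 5 members that were lower on BME than on BME + COL at day 5, and of 2 that were higher, are printed here from 200 bases before to 20 after the start, in GRCm38.p6, 5′ to 3′ on the strand of the gene, and these coordinates do not match the mm9 coordinates used for genes. They are shown because the first 5 hold the words above and belong to members called lower on BME, and the last 2 hold none of these words and belong to members that moved the other way. Being chosen by direction, they do not stand for the members at large. Atp5sl, higher on BME, holds the YY1 word and the E-box. Of the 21 members with the NRF1 word, 14 were called lower on FPKM. Among all 79 tested members 46 were called lower, and among all tested genes 45.3%. Capitals mark the words.
Cycs, chr6:50566550-50566769, minus strand: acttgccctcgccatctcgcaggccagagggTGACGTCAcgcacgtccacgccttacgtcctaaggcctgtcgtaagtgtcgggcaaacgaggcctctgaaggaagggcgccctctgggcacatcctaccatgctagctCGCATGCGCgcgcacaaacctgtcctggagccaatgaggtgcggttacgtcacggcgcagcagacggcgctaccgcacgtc
Sdhb, chr4:140961071-140961290, plus strand: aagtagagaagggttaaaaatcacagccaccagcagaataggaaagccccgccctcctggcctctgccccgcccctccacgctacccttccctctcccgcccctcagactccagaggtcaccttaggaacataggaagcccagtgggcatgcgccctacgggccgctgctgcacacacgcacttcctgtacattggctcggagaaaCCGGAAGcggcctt
Sdhd, chr9:50603830-50604049, minus strand: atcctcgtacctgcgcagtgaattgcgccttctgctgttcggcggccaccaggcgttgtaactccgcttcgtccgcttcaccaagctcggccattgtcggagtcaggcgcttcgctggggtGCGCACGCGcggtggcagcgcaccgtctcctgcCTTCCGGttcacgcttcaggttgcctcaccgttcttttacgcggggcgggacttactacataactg
Uqcrfs1, chr13:30545297-30545516, minus strand: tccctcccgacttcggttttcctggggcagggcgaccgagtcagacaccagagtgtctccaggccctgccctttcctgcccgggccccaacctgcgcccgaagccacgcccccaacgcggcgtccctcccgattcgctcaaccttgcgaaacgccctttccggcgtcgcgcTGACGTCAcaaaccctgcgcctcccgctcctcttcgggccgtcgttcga
Atp5g2, chr15:102671028-102671247, minus strand: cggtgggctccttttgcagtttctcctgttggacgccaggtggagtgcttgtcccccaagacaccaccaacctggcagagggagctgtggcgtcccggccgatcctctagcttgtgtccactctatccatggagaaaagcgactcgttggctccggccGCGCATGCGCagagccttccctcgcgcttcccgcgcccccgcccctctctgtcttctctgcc
Cox7a2l, chr17:83514314-83514533, minus strand: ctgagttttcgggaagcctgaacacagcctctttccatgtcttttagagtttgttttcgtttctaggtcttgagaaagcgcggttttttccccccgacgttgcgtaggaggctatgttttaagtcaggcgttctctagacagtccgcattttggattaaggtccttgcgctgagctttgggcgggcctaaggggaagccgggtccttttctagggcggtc
Ndufv3, chr17:31519915-31520134, plus strand: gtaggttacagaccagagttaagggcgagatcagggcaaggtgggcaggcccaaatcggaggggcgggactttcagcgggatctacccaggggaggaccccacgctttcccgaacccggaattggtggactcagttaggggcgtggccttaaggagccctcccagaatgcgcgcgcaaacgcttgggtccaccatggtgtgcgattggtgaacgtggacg
The CRE of Cycs began 169 bases and its reversed NRF1 word 61 bases before the start, and the CRE of Uqcrfs1 began 29 bases before it. Sdhd held the NRF1 word 79 bases and the reversed ETS word 46 bases before the start, and Atp5g2 the NRF1 word on both strands from 42 bases before it. The ETS word of Sdhb began at base 7 after the start.

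Of the 87 members, 79 reached a mean of 1 FPKM and were tested. They ranged from 2.80 FPKM for Atp5s to 688 FPKM for Atp5b, the catalytic beta subunit of ATP synthase. The 8 others were all paralogues of complex IV subunits. Cox6b2, Cox7b2, Cox8b and Cox8c, the testis and muscle forms, were listed at 0 in all 9 libraries. Cox4i2, Cox6a2, Cox7a1 and Ndufa4l2 had values under 1 FPKM everywhere, and the highest of them was Cox6a2, the heart and muscle form of subunit 6a, with 0.742, 0.186 and 0.814 FPKM in BME day 5 replicates a, b and c and at most 0.275 FPKM in any other library. Their ubiquitous counterparts carried the signal. Cox4i1, for example, was at 572 FPKM over all libraries while Cox4i2 was at no more than 0.138 FPKM in any.

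At day 5, transcripts for the catalytic and electron-carrying subunits were lower on BME than on BME + COL on the FPKM scale, while accessory subunits were mixed and complex IV had 5 of 12 tested members lower and 1 higher. On FPKM, 46 of the 79 tested members were lower on BME and 6 were higher. Across all 10497 tested genes, 45.3% were called lower and 30.3% higher. The members' median difference was -0.30 (log2) against -0.18 over all genes, and 49 of the 79 lay below the all-gene median. On TPM, 28 members were lower and 30 were higher, beside 31.7% and 46.3% of all genes, with a median of 0.05 against 0.16 over all genes. Leaving out BME day 5 replicate b gave 45 lower and 9 higher on FPKM, with a median of -0.21.

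**Figure D1:**
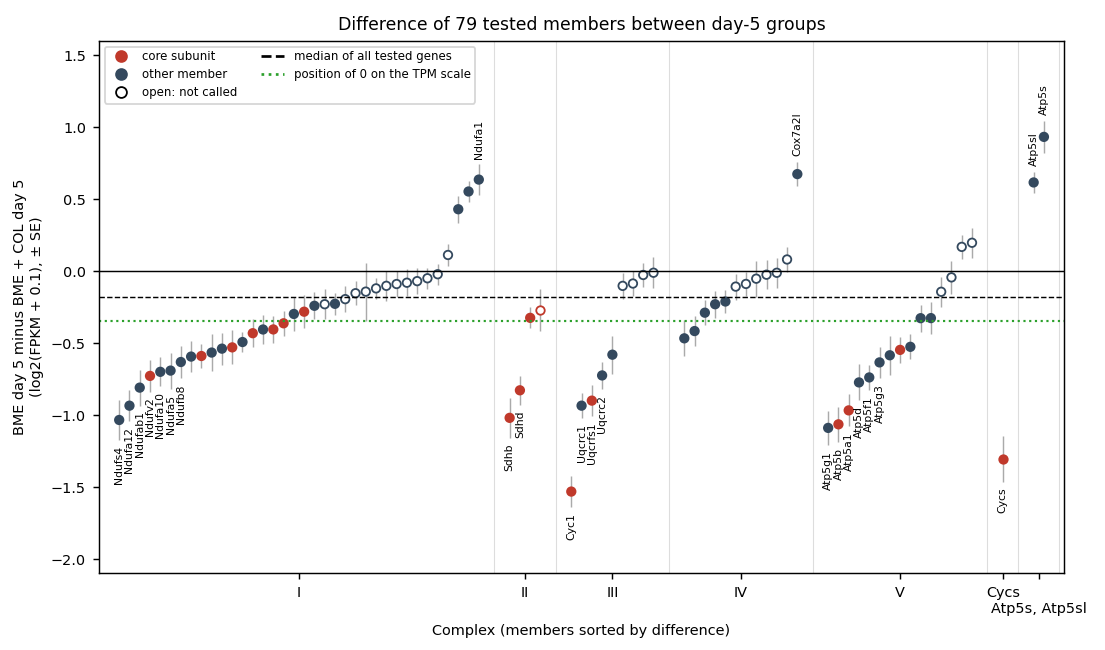
Difference between BME day 5 and BME + COL day 5 in log2(FPKM + 0.1), with its standard error, for each of the 79 tested members, sorted within complexes (filled points passed the test at an adjusted p under 0.05, red points are core subunits). All 17 core subunits lie below the dashed line at the all-gene median of -0.18, and the dotted line marks where 0 would lie on the TPM scale.

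The 17 core subunits, those with redox centres or catalytic roles, Cycs included, had a lower median than any of the 5 complexes on either scale. Complexes II and III came close, at -0.576 and -0.581 on FPKM against -0.590, and -0.232 and -0.235 on TPM against -0.245. The core set shares genes with both. On FPKM 16 core subunits were lower on BME at day 5 and none was higher, with a median of -0.59. Of all tested genes, 45.3% were lower and 30.3% higher on that scale. On TPM 11 were lower and none higher, with a median of -0.24, beside 31.7% and 46.3% of all genes. All 17 lay below the all-gene median on both scales. As a share of the summed FPKM of the members, which does not depend on the scaling, core subunits held 14.4 to 16.0% in the BME day 5 libraries, 17.4 to 17.8% at day 1 and 21.6 to 22.2% on BME + COL. Atp5b, the core subunit with the highest FPKM, weighs most in this share.

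Cyc1 (mm9 chr15:76173953-76176364, plus strand), cytochrome c1 of complex III, showed the largest difference of any member. Its FPKM was 68.0, 69.2 and 69.0 at BME day 1, 56.5, 41.3 and 51.6 at BME day 5, and 146.7, 142.3 and 139.9 on BME + COL. The groups did not overlap, and the BME + COL libraries stood far above both BME groups. The mean on BME + COL was 2.87 times that of BME day 5 (difference -1.53 ± 0.11 SE on log2, limma adjusted p = 2.3e-06, and -1.19 on TPM).

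Cycs (mm9 chr6:50512562-50516473, minus strand), the cytochrome c that Cyc1 reduces, followed with 26.3, 16.7 and 25.7 FPKM at BME day 5 against 57.2, 53.6 and 56.2 on BME + COL. Day 1 lay between, at 32.0, 31.5 and 36.0 FPKM, and no group overlapped another. The difference at day 5 was -1.31 ± 0.16 (limma adjusted p = 5.4e-05), and it was -0.96 on TPM.

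**Figure D2:**
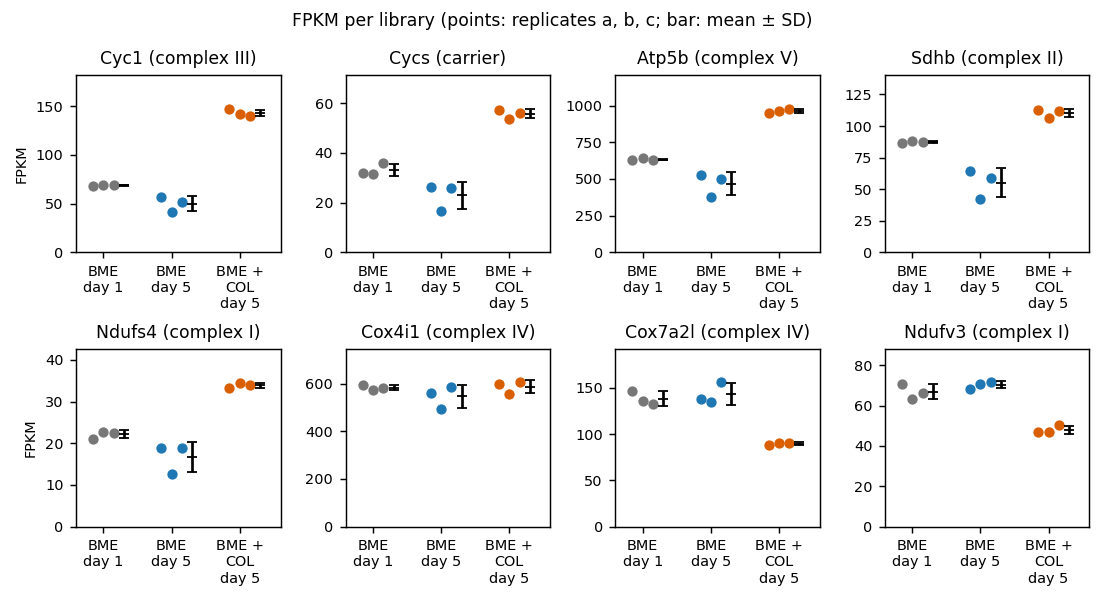
FPKM of 8 members in each of the 9 libraries (points are replicates a, b and c, bars are mean ± SD, each axis starts at 0). Cyc1, Cycs, Atp5b, Sdhb and Ndufs4 were highest in the 3 BME + COL libraries, Cox4i1 overlapped between all groups, and Cox7a2l and Ndufv3 were lowest on BME + COL.

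In complex V, 11 of 15 members were lower on BME at day 5 and none was higher on FPKM (median -0.55). The all-gene shares were 45.3% lower and 30.3% higher. On TPM 8 were lower and 4 higher (median -0.20), beside 31.7% and 46.3% of all genes. Atp5b (mm9 chr10:127520363-127527444) had 527, 377 and 496 FPKM at BME day 5 and 953, 966 and 980 on BME + COL, with no overlap (-1.06 ± 0.12, limma adjusted p = 3.7e-05). Atp5a1, the alpha subunit beside it in the F1 head, had 159.8, 120.8 and 158.5 FPKM on BME and 289, 282 and 282 on BME + COL (-0.97 ± 0.11). Atp5c1, the gamma subunit that turns within the head, differed less (-0.55 ± 0.09). On TPM the differences were -0.72 for Atp5b, -0.62 for Atp5a1 and -0.20 for Atp5c1.

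The c subunit of the membrane ring is encoded by 3 genes whose mature proteins are identical. Atp5g1 (mm9 chr11:95934107-95937008) differed most, with 64.6, 47.8 and 62.2 FPKM at BME day 5 and 118.9, 119.1 and 130.8 on BME + COL (-1.09 ± 0.12, limma adjusted p = 2.7e-05). Atp5g3 differed by -0.63 ± 0.11 and Atp5g2 by -0.53 ± 0.09, and the call of Atp5g2 was lost on TPM (-0.18). Atp5g1 made up 10.8 to 12.3% of the summed FPKM of the 3 genes at BME day 5, 13.9 to 14.1% at day 1 and 15.4 to 16.3% on BME + COL. Reads shared between these genes or with processed pseudogenes of Cycs and other members could have been divided between copies, and the handling of such reads is not given in the sources used here.

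The 4 members of complex V without a call on FPKM were the small subunits Atp5e, Atp5j, Atp5k and Atp5l. Atp5l, the g subunit, was at 328, 294 and 334 FPKM on BME and 288, 279 and 283 on BME + COL, which did not pass the test on FPKM (0.17 ± 0.08, limma adjusted p = 0.093) and was called higher on BME on TPM (0.51). Atp5k, the e subunit, differed by 0.20 ± 0.10, Atp5e, the epsilon subunit, by -0.04 ± 0.11, and Atp5j, coupling factor 6, by -0.14 ± 0.10. The FPKM of Atp5b was 1.28 to 1.61 times that of Atp5l in the BME day 5 libraries, 1.85 to 2.08 times at day 1 and 3.31 to 3.47 times on BME + COL.

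In complex III, 5 of 9 members were lower on BME and none was higher on FPKM (median -0.58), beside 45.3% and 30.3% of all genes. The 5 were Cyc1, Uqcrfs1, Uqcrc1, Uqcrc2 and Uqcrb. On TPM 5 were lower and 4 higher, beside 31.7% and 46.3% of all genes. Uqcrfs1 (mm9 chr13:30632181-30637185), the Rieske iron-sulfur protein, had 41.5, 32.7 and 44.5 FPKM on BME and 74.5, 71.7 and 73.6 on BME + COL (-0.90 ± 0.11, limma adjusted p = 5.4e-05). Uqcrc1 and Uqcrc2, the large matrix-facing core proteins, differed by -0.93 ± 0.09 and -0.72 ± 0.10. The other 4, the small subunits Uqcr10, Uqcr11, Uqcrh and Uqcrq, lay between -0.10 and -0.01 with no call on FPKM, and all 4 were called higher on BME on TPM, between 0.24 and 0.33. The ratio of Cyc1 to Uqcrq, formed after both values were seen, was 0.281 to 0.322 at BME day 5, 0.341 to 0.412 at day 1 and 0.769 to 0.916 on BME + COL.

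Complex II, which has 4 subunits and all of them in the nucleus, was split between its subunits. Sdhb (mm9 chr4:140517186-140535107), the iron-sulfur subunit, had 64.5, 41.9 and 59.2 FPKM at BME day 5 and 112.7, 106.2 and 111.7 on BME + COL (-1.02 ± 0.14, limma adjusted p = 0.00013). Sdhd, a membrane anchor, differed by -0.83 ± 0.10. Sdha, the flavoprotein, differed by -0.32 ± 0.07 on FPKM, a call that was not kept on TPM (0.02). Sdhc, the other anchor, had 52.6, 38.0 and 58.9 FPKM on BME and 59.2, 58.3 and 59.6 on BME + COL, and these ranges overlapped (-0.27 ± 0.15, limma adjusted p = 0.12).

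Of the 36 complex I members, 21 were lower on BME at day 5 and 3 were higher on FPKM (median -0.29). Over all tested genes these shares were 45.3% and 30.3%. On TPM 12 members were lower and 13 higher (median 0.06), beside 31.7% and 46.3% of all genes. Ndufs4 (mm9 chr13:115078003-115178302), an accessory subunit of the NADH-oxidising arm, had 18.9, 12.6 and 18.8 FPKM on BME and 33.2, 34.4 and 34.0 on BME + COL (-1.03 ± 0.14, limma adjusted p = 0.00012). Ndufa12, an accessory subunit of the same arm, differed by -0.93 ± 0.11 and Ndufa5 by -0.69 ± 0.13. The 7 core subunits were all lower on FPKM, from -0.28 for Ndufs3 to -0.73 for Ndufv2. Ndufs3 lost its call when any of 6 libraries was left out, replicates a, b and c of BME + COL day 5, a and b of BME day 1 and b of BME day 5 (limma adjusted p up to 0.144). On TPM Ndufv2 and Ndufs7 remained lower (-0.38 and -0.24), while Ndufs3 and Ndufv1, among others, were not called.

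In complex I 3 members went the other way, and they were higher on BME at day 5 on both scales. Ndufa1, a small membrane subunit, had 87.1, 72.7 and 92.7 FPKM on BME against 54.4, 49.5 and 58.1 on BME + COL (0.64 ± 0.10, limma adjusted p = 0.00039). Ndufa13, also known as Grim19, differed by 0.43 ± 0.09. An exon of Ndufa13 overlaps Tssk6 on the opposite strand by 344 nt. The study's methods name a library kit that marks strand, while the labels name no library kit, and whether counting used strand is not given in the sources used here, so reads of Ndufa13 and Tssk6 may have been counted for either gene.

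Ndufv3 (mm9 chr17:31657060-31668270), an accessory subunit of the NADH module, had 68.4, 70.8 and 71.9 FPKM on BME against 46.9, 46.8 and 50.1 on BME + COL (0.55 ± 0.07, limma adjusted p = 0.00011). It has a long and a short transcript, which differ by an exon of 1092 nt (mm9 chr17:31664255-31665346) that lengthens the protein. The long form took 14.0, 13.3 and 16.0% of the gene's FPKM at BME day 5, 13.0, 13.0 and 12.9% at day 1 and 7.47, 8.32 and 7.17% on BME + COL. Its level was 10.2 ± 1.16 FPKM (SD, n = 3) at BME day 5 and 3.66 ± 0.21 on BME + COL, and the short form was at 60.2 ± 1.26 and 44.3 ± 1.95. Both forms were thus lowest on BME + COL, and the share of the long form did not overlap between BME + COL and either BME group.

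Of the 5 complexes, complex IV had the median nearest to 0 on FPKM and the highest median on TPM. On FPKM 5 of its 12 tested members were lower on BME at day 5 and 1 was higher (median -0.10). Among all tested genes 45.3% were lower and 30.3% higher. On TPM none was lower and 7 were higher (median 0.25), beside 31.7% and 46.3% of all genes. The 5 were Cox5a, Cox5b, Cox7a2, Cox6b1 and Cox7b, with differences between -0.47 and -0.21, and none of these calls was kept on TPM. Cox6b1 lost its call without any 1 of replicates a, b and c of BME + COL day 5 and of BME day 1 or replicate a of BME day 5, Cox7a2 without replicate a or c of BME + COL day 5, and Cox7b without any 1 of the 3 BME + COL libraries or replicate a of BME day 5 (limma adjusted p between 0.0542 and 0.143). Cox4i1, the ubiquitous subunit 4, was at 560, 493 and 586 FPKM on BME and 600, 556 and 607 on BME + COL, and the groups overlapped (-0.11 ± 0.09, limma adjusted p = 0.30). Cox6a1 and Cox8a, the ubiquitous subunits 6a and 8, and Ndufa4 lay between -0.09 and -0.01 with no call on FPKM.

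Cox7a2l (mm9 chr17:83901257-83913673) was the exception in complex IV. Its product is related to subunit 7a and joins complexes III and IV in supercomplexes. It had 137.7, 135.1 and 156.9 FPKM at BME day 5, 147.2, 135.9 and 132.5 at day 1, and 87.8, 89.9 and 90.9 on BME + COL. The 2 BME groups overlapped and the BME + COL libraries were lower than all 6 BME libraries (0.67 ± 0.09 at day 5, limma adjusted p = 7.2e-05, and 1.02 on TPM). Cox7a2, its paralogue in the complex itself, was at 104.0, 90.7 and 107.0 FPKM on BME and 127.4, 113.6 and 127.2 on BME + COL (-0.29 ± 0.09).

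**Figure D3:**
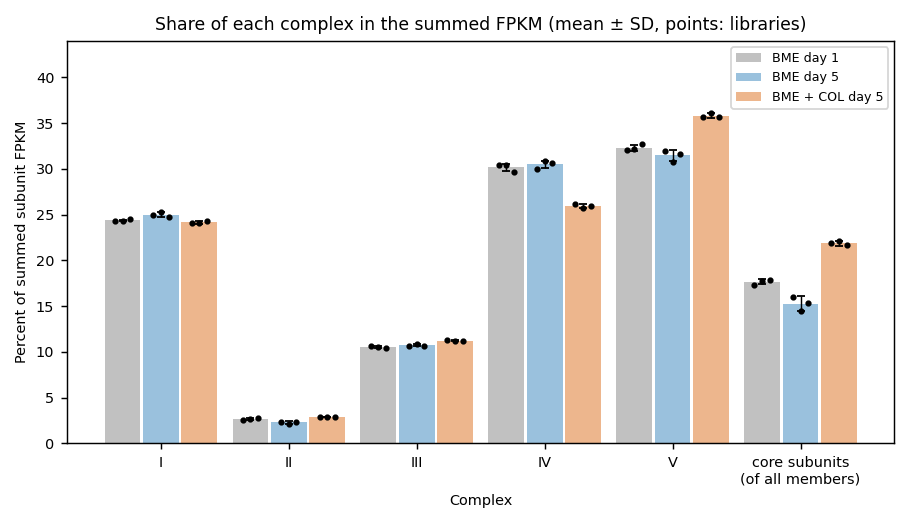
Share of each complex in the summed FPKM of the subunits of complexes I to V, and of the core subunits in the summed FPKM of all members, in percent, for the 3 groups (bars are mean ± SD, points are libraries). Complex V was highest and complex IV lowest in the 3 BME + COL libraries.

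Shares within the summed subunit FPKM do not depend on the choice of scale, but members with high FPKM weigh most in them. In complex V, Atp5b had 527, 377 and 496 FPKM at BME day 5 and 953, 966 and 980 on BME + COL. The shares are therefore not a measure of how many members of a complex differed. Complex V took 35.8 ± 0.26% (SD, n = 3) on BME + COL, 31.5 ± 0.61% at BME day 5 and 32.3 ± 0.33% at BME day 1. Complex IV took 25.9 ± 0.19%, 30.5 ± 0.41% and 30.2 ± 0.43% in the same order. Complex III took 11.2 ± 0.05%, 10.7 ± 0.13% and 10.5 ± 0.10%, and complex II 2.91 ± 0.03%, 2.30 ± 0.13% and 2.64 ± 0.09%. Complex I was at 24.1 ± 0.17%, 25.0 ± 0.30% and 24.4 ± 0.10%. The members together held 2.57 to 2.77% of all FPKM in every library, and the groups overlapped in that share.

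The 2 symbols that encode no subunit were both higher on BME at day 5. Atp5s, coupling factor B, had 3.34, 4.05 and 3.53 FPKM on BME against 1.74, 1.82 and 2.01 on BME + COL (0.93 ± 0.11, limma adjusted p = 4.5e-05). Atp5sl, a complex I assembly protein, had 3.60, 3.67 and 3.90 FPKM against 2.48, 2.37 and 2.34 (0.62 ± 0.08). Without them, 4 of the 6 members higher on BME remain, Cox7a2l, Ndufa1, Ndufv3 and Ndufa13.

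Of the 36 members named by the rule stated in the methods, 30 were called at day 5, and 17 of these kept their call and direction under every alternative that was run for single members. The 12 that were lower on BME were Cyc1, Cycs, Atp5a1, Atp5b, Atp5g1, Atp5g3, Sdhb, Sdhd, Uqcrfs1, Ndufs4, Ndufa5 and Ndufv2. The 5 that were higher were Cox7a2l, Ndufa1, Ndufv3, Atp5s and Atp5sl. The naming rule takes in the largest called rise and fall of each complex, so part of the 30 calls was fixed by the rule. Across all 10497 tested genes, 45.3% were called lower on BME and 30.3% higher.

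Between day 1 and day 5 on BME, few members changed. On FPKM 14 fell, 1 rose and 64 passed in neither direction, beside 22.2% of all tested genes lower and 9.09% higher, with a median of -0.15 for the members and -0.15 for all genes. On TPM 17 were lower and 7 higher, beside 21.3% and 14.6% of all genes (median -0.03). The falls included Sdhb (-0.68 ± 0.14, limma adjusted p = 0.0089), Cycs (-0.56 ± 0.16), Cyc1 (-0.48 ± 0.11), Atp5b (-0.45 ± 0.12), Atp5g1 (-0.42 ± 0.12) and Cox5b (-0.31 ± 0.10). Atp5k was the only rise (0.35 ± 0.10, limma adjusted p = 0.033), with 237, 222 and 252 FPKM at day 1 and 297, 268 and 344 at day 5. Its transcript is 292 nt long, the shortest of the tested members. These counts rested on single libraries. The falls numbered 3, 4 and 7 without BME day 1 replicates a, b and c, 7, 7 and 8 without BME + COL day 5 replicates a, b and c, which enter through the shared spread, and 20 without BME day 5 replicate b. Atp5k lost its call without BME day 5 replicate c, BME day 1 replicate a or b, or any of the 3 BME + COL libraries, and 8 members were called higher without BME day 5 replicate b. Without BME day 1 replicate a the calls of Cycs, Atp5b, Atp5g1 and Cox5b were lost, without replicate b those of the same 4, and without replicate c those of Cycs and Cox5b. Cox5b also lost its call without BME day 5 replicate c or any of the BME + COL libraries. Sdhb was the only 1 of the 10 named and called members that kept its call under every alternative.

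Between BME day 1 and BME + COL day 5, 31 members rose and 5 fell on FPKM, beside 34.2% of all genes higher and 31.8% lower, with a median of 0.17 against 0.03 over all genes. On TPM 22 were higher and 21 lower, beside 25.1% and 46.4% of all genes, with a median of -0.05 against -0.19. Cyc1 rose most (1.05 ± 0.11, limma adjusted p = 3.6e-05), followed by Cycs (0.75 ± 0.16), Ndufa5 (0.72 ± 0.13), Atp5g1 (0.66 ± 0.12) and Uqcrfs1 (0.66 ± 0.11). The 5 falls were Cox7a2l (-0.63 ± 0.09), Atp5s (-0.62 ± 0.11), Atp5sl (-0.57 ± 0.08), Ndufv3 (-0.48 ± 0.07) and Ndufa1 (-0.45 ± 0.10). In complex IV none rose and Cox7a2l was the only fall on FPKM. In complex V 8 of 15 rose, in complex III 6 of 9 and in complex I 14 of 36. Without BME day 5 replicate b, which enters this comparison through the shared spread, 43 rose and 9 fell. This comparison and the preceding pair share libraries, so the values of the 3 are not independent.

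Members differed in transcript length, and length moved with the result. The tested members had a median longest transcript of 692 nt, against 2824 nt over all tested genes, with 1472 nt for core subunits and 561 nt for accessory subunits. Across the 79 members, the Spearman correlation of length with the difference at day 5 was -0.48 and Pearson's r was -0.31, while Spearman's rho was 0.12 across all tested genes. Members of 300 to under 600 nt had a median difference of -0.09, against -0.33 for all 187 genes of that length. Of these 31 members, 9 were called lower, among them Ndufa12 and Ndufa5, and 1 higher. Of the 187 genes, 51.3% were called lower and 9.63% higher. Members of 1000 to under 2000 nt had a median of -0.65, against -0.31 for 2377 genes. These are correlations across genes that share libraries, and the part of length in the order of members was not tested.

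**Figure D4:**
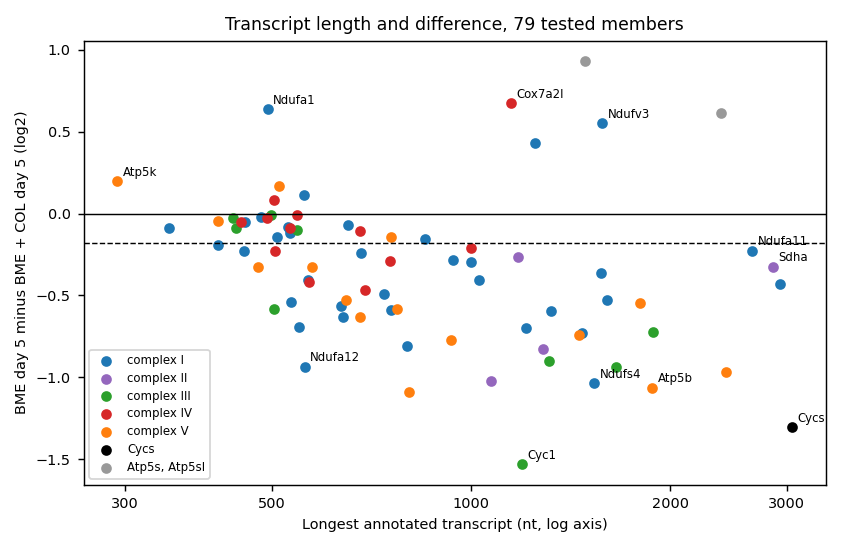
Difference between BME day 5 and BME + COL day 5 (log2) against the length of the longest annotated transcript (nt, log axis) for the 79 tested members, with the all-gene median as a dashed line. Of the 31 members of 300 to under 600 nt, 9 were called lower and 1 higher, beside 51.3% and 9.63% of all 187 genes of that length. Of the longer members Cox7a2l, Ndufv3, Ndufa13, Atp5s and Atp5sl lie above 0.

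Promoter words did not sort members by direction in a simple way. The counts here are on FPKM, where 45.3% of all tested genes were lower and 30.3% higher. Of the 79 tested members, 46 were lower and 6 higher. Of the 21 members with the NRF1 word, 14 were lower on BME at day 5 and none was higher (median -0.41, against -0.26 for tested members whose promoters lack it). Of the 16 with the ETS word, 7 were lower and none was higher (median -0.12 against -0.36). On TPM 28 members were lower and 30 higher. Holders of both words included Sdhd, lower on that scale, and Atp5k, Atp5l, Cox6a1 and Uqcr11, higher on it. All 5 CRE members except Ndufb2 were lower (median -0.70 against -0.29). Of the 8 with the YY1 word, 5 were lower and 1 was higher (median -0.37 against -0.29). Of the 7 with the E-box, 4 were lower and 1 was higher (median -0.36 against -0.29), and both members with the word of oestrogen-related receptors were lower. These counts come with no test and were read with the differences known.

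Transcripts for proteins that build, regulate and serve the complexes were read at day 5 on FPKM from 5 lists, beside 45.3% of all tested genes lower on BME and 30.3% higher, with an all-gene median of -0.18. Of 13 tested complex I assembly factors, 9 were lower and 1 was higher (median -0.38), led by Ndufaf6 (-1.30 ± 0.24), Ndufaf2 (-1.19 ± 0.20) and Ndufaf4 (-0.99 ± 0.13). Of 27 tested assembly factors of complexes II to V, 19 were lower and 2 higher (median -0.41). Cox18, which helps to insert a mitochondrially encoded subunit of complex IV, differed by -1.12 ± 0.10, and Bcs1l, which inserts the Rieske protein into complex III, by -0.91 ± 0.16. On TPM these counts were 5 lower and 3 higher, and 8 lower and 7 higher, beside 31.7% and 46.3% of all genes.

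Among 19 tested regulators of mitochondrial gene expression, 13 were lower and 2 higher on BME (median -0.60, and 10 lower and 4 higher on TPM). Nrf1, the factor whose word is described above, was at 5.60 ± 1.04 FPKM (SD, n = 3) on BME and 13.5 ± 0.35 on BME + COL (-1.27 ± 0.12). Pprc1, a coactivator of the PGC-1 family, was at 12.8 ± 1.83 and 30.6 ± 1.63 FPKM (-1.26 ± 0.10), and Tfam, which packages mitochondrial DNA, at 6.32 ± 1.59 and 11.8 ± 0.25 (-0.93 ± 0.16). Ppargc1a and Ppargc1b, the other coactivators of that family, were under a mean of 1 FPKM and were not tested.

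Of 8 tested carriers and coupling proteins, 6 were lower and 1 higher. Slc25a5, an ADP/ATP carrier, differed by -1.10 ± 0.16, and Vdac1, a channel of the outer membrane, by -0.97 ± 0.16. Ucp2, an inner membrane carrier of the uncoupling protein family, was higher on BME (0.43, limma adjusted p = 0.011). Of 12 tested genes of ubiquinone synthesis, 7 were lower and 4 higher, shares not far from those of all genes. On TPM the counts were 6 lower and 2 higher for the carriers, and 5 lower and 5 higher for ubiquinone synthesis. Pdss1, which with Pdss2 makes the polyprenyl tail of ubiquinone, was at 1.795 ± 0.90 FPKM on BME and 8.98 ± 0.40 on BME + COL (-2.39 ± 0.31). Coq10a, a ubiquinone-binding protein, differed by 1.17 ± 0.11 in the other direction, and Adck3 by 1.10 ± 0.17.

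From BME day 1 to BME day 5, 2 complex I assembly factors, 4 assembly factors of complexes II to V, 8 regulators, 3 carriers and 3 genes of ubiquinone synthesis fell on FPKM, while 0, 2, 0, 0 and 1 rose, beside 22.2% of all tested genes lower and 9.09% higher. From BME day 1 to BME + COL day 5, 8, 14, 10, 5 and 7 rose in the same order and 0, 2, 3, 0 and 2 fell, beside 34.2% and 31.8% of all genes. On TPM the latter counts were 5, 8, 6, 4 and 5 up and 3, 5, 6, 1 and 4 down.

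Marker genes of other cell types were at low levels. All 5 endothelial markers were under 1 FPKM in every library, as were 6 of 7 haematopoietic markers (all but Cd68), 7 of 8 striated muscle markers (all but Acta1), 4 of 6 fibroblast markers (all but Col1a1 and Pdgfra) and 3 of 4 brown adipocyte markers (all but Fabp4). Summed muscle markers were 3.24 to 4.24 FPKM on BME + COL and 0.366 to 0.616 at BME day 5, and summed haematopoietic markers were 1.04 to 1.19 and 2.62 to 3.23. Summed fibroblast markers were 4.32 to 4.44 FPKM on BME + COL and 19.3 to 27.0 at BME day 5, and brown adipocyte markers 0.0192 to 0.135 and 2.44 to 3.46. Of 8 epithelial markers, Krt8, Krt18, Krt14, Cdh1 and Epcam reached 1 FPKM, and Krt19, Krt5 and Cldn7 did not. Their sum was 784 to 1170 FPKM at BME day 5, 1460 to 1620 at day 1 and 2350 to 2460 on BME + COL, so it moved with the core subunits, and its part in the differences was not tested.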

How the data were processed

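RNA was sequenced from 9 libraries of D2.0R cells (3 per group). The deposited files give FPKM per transcript, made by the authors with Cufflinks (version not given in the sources used here) on mm9 (NCBIM37). The submitters' processing notes list TopHat2 2.0.8 and, for base calling and read trimming, CASAVA 1.8.4 and Trimmomatic 0.30, besides Partek. No counts were used, so precision was taken from the deposited intervals.

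Values of the 30563 transcripts were added up within each gene symbol. The 10497 genes whose mean reached 1 FPKM were fitted as log2(FPKM + 0.1), a scale that understates changes of low genes, with limma 3.58.1 (R 4.3.3) with an intensity trend, 3 group means and 6 residual degrees of freedom. P-values were two-sided, adjusted by Benjamini and Hochberg over all tested genes, and called under 0.05. TPM and other scalings, filters, pseudocounts and left-out libraries were run as alternatives.

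Members and gene lists were chosen with earlier results of these data known. The members named were core subunits, paralogue sets, Cycs, Cyc1, the largest called rise and fall of each complex, and symbols that encode no subunit, except 1 that is not reported here. Ndufa12, Ndufa13, Atp5e, Atp5j, Atp5l, the Uqcr genes other than Uqcrfs1, and Cox6a2 were named after their values were seen, as were the ratios. The 6 promoter words were settled after other forms had been tried. Of 87 members, 10 share exon sequence with another gene, 9 of them on the opposite strand, and Ndufs5 shares 484 nt on the same strand.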

Additional observations from a re-analysis of the deposited data

How the results depend on the processing

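Values are log2 differences, first group minus second. With TPM the members' counts (higher, lower) and medians were 30, 28 and 0.047 for BME day 5 against BME + COL day 5, 22, 21 and -0.053 for BME + COL day 5 against BME day 1, and 7, 17 and -0.030 for BME day 5 against BME day 1. With TPM computed without genes under 300 nt they were 32, 28 and 0.057, then 22, 20 and -0.033, then 12, 12 and 0.0033. With quantile normalization they were 35, 21 and 0.088, then 20, 31 and -0.062, then 13, 12 and 0.030. With median-ratio scaling 11 were higher (median -0.11) in the first, 8 lower in the second and 8 higher (median -0.00736) in the third. A minimum of 5 FPKM left 3 lower in the second. With only the 6 libraries compared there were 9 lower in the second and 0 higher and 2 lower in the third. The third had 0 higher and 8 lower with no filter, 3 higher with no intensity trend, and 0 higher and 2 lower at an adjusted p under 0.01. Leaving out 1 library gave 6 to 9 higher, 38 to 48 lower and medians of -0.39 to -0.21 in the first, 23 to 43 higher, 5 to 9 lower and 0.14 to 0.19 in the second, and 0 to 8 higher, 3 to 20 lower and -0.20 to -0.08 in the third.

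The lists that follow hold only those of the 36 named members whose sign turned with a call in the main fit or the alternative. Sdhc turned on TPM without a call (0.077), and members outside the 36, such as Ndufa2 (0.26 on TPM), turned as well. Members so listed at day 5 were, with TPM, Cox4i1 (0.24), Cox6a1 (0.26), Cox6b1 (0.12), Cox7a2 (0.056), Cox7b (0.13), Cox8a (0.33), Ndufa4 (0.32), Ndufs3 (0.063) and Sdha (0.020). With TPM without short genes they were Cox4i1 (0.26), Cox6a1 (0.28), Cox6b1 (0.14), Cox7a2 (0.079), Cox7b (0.16), Cox8a (0.36), Ndufa4 (0.34), Ndufs3 (0.086), Ndufv1 (0.0053) and Sdha (0.043). With quantile normalization they were Cox4i1 (0.40), Cox5b (0.039), Cox6a1 (0.24), Cox6b1 (0.13), Cox7a2 (0.18), Cox7b (0.26), Cox8a (0.35), Ndufa4 (0.33), Ndufs3 (0.12), Ndufs8 (0.054), Ndufv1 (0.052) and Sdha (0.088), and with median-ratio scaling Cox8a (0.17). For BME + COL day 5 against BME day 1 the values were Cox4i1 (-0.21), Cox6b1 (-0.20) and Cox7b (-0.18) with TPM, -0.20, -0.19 and -0.17 for these 3 without short genes, and with quantile normalization Cox4i1 (-0.23), Cox5b (-0.15), Cox6b1 (-0.23), Cox7a2 (-0.18) and Cox7b (-0.22). TPM shifts all members of a comparison by nearly the same amount, while quantile normalization moved members unequally.

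Replicate letters showed no sign of pairing, as same-letter correlations of deviations ran from -0.23 to 0.10. Correlations between different letters ran from -0.18 to 0.18. With 3 libraries per group, this check cannot settle whether libraries of 1 letter shared a day. With a replicate block the fit gave 6 higher and 46 lower, 31 and 5, and 1 and 11, and for single named members it ended only the calls of Cox5b (-0.31, adjusted p = 0.060) and Ndufs4 (-0.42, adjusted p = 0.061) between the BME days. Of 2259 single-member values over all alternatives, 2050 kept their call and direction or stayed without a call in either direction. Of the rest, 114 lost a call, 52 gained one and 43 turned sign with a call in the main fit, the alternative or both. Uncalled values whose sign changed are among the 2050. Having 3 libraries per group limits what small differences can be called.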
